A study of Homo sapiens with 6 samples.

Results

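The genes described here are the cadherins, protocadherins and desmosomal cadherins, the calcium-dependent adhesion receptors that join neighbouring cells. They were chosen by name alone, as every gene whose single annotated symbol belongs to the series of numbered classical and atypical cadherins (CDH), cadherin-related genes (CDHR), unclustered and clustered protocadherins (PCDH), desmocollins (DSC), desmogleins (DSG) and CELSR receptors. This gave 81 genes of 19775 measured, read by 148 probe sets with 1 symbol, and for each gene the probe set whose mean over the 6 arrays was highest was used. RNA was compared between 2 human neuroblastoma (NB) lines, SH-SY5Y and SY5Y-TR1, which both carry the ALK F1174L mutation, with 3 arrays in each line. Parental SH-SY5Y cells were kept in medium alone. SY5Y-TR1 cells, a single subclone expanded after long exposure of SH-SY5Y cells to rising doses of the ALK inhibitor TAE684, were kept in 1 μM TAE684. The comparison therefore combined clonal selection, resistance and the presence of the drug, which cannot be told apart. The labels call the arrays of a line biological replicates, whereas the submitters' design counts each line as 1 sample with repeated runs, so p-values measure the spread between these arrays.

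Classical cadherins bind the same cadherin on the next cell through their extracellular repeats and are tied to actin by catenins, with N-cadherin typical of neural and mesenchymal cells and E-cadherin of epithelia. Desmosomal cadherins connect instead to intermediate filaments, and protocadherins are a larger, mostly neural branch. The alpha, beta and gamma protocadherin genes lie in tandem clusters in which each cell uses a few promoters, and CELSR receptors work in planar cell polarity.

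Signals are given on the log2 scale as robust multi-array average (RMA) values, whose array medians were 5.56 to 5.59. Apart from statements on background, which set a gene against a level taken from other genes, no statement compares the levels of different genes. Arrays of a line correlated across probe sets at r of 0.997 to 0.998, and arrays of different lines at 0.959 to 0.960. A gene was called where limma, fitted to all genes, gave an adjusted p under 0.05 (Benjamini-Hochberg) and the fold was 2 or more. This rule called 1060 genes higher in SY5Y-TR1 cells (5.36%) and 1185 lower (5.99%). Centring the arrays on 23 housekeeping genes, which were 0.17 lower on the log2 scale in SY5Y-TR1 cells, raised every log2 fold change by that amount and gave 1401 higher and 984 lower. Genes of tissues unrelated to neuroblastoma (47 measured) served as background, and the 90th percentile of their means, 6.28, was the background level. Where all arrays of the dimmer line were at or under it the fold is a lower bound, and no fold is given where the brighter mean was also under it. Of 7 measured noradrenergic neuroblast markers, 6 were above background in SH-SY5Y cells and 4 were called lower in SY5Y-TR1 cells (PHOX2A, GATA2, GATA3 and DBH), whereas TH was under background on all 6 arrays. Measured Schwann cell (3), blood (4) and endothelial (5) markers were under background in both lines. Among 7 fibroblast markers, 3 were called higher (COL1A1, THY1 and PDGFRB) and 3 lower (DCN, PDGFRA and LUM), and of 7 markers of simple epithelium KRT8 and KRT18 were called higher and the other 5 were under background. The mean log2 signal over each list ran from 9.58 to 9.61 in SH-SY5Y and from 8.05 to 8.20 in SY5Y-TR1 arrays for the noradrenergic markers, from 8.89 to 8.96 and from 8.58 to 8.72 for the fibroblast markers, and from 6.37 to 6.47 and from 7.05 to 7.099 for the epithelial markers. Their part in the adhesion values was not tested. In RNA from whole cultures, fewer cells using a gene and less RNA per cell cannot be told apart.

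Of the 81 genes, 24 were above background in at least 1 line, 21 of them in SH-SY5Y cells, 22 in SY5Y-TR1 cells and 19 in both, and 57 were under it on all 6 arrays. In SY5Y-TR1 cells 5 were called higher (PCDH18, PCDH7, CELSR1, PCDHB16 and CDH18) and 2 lower (PCDH9 and PCDH17), against the shares of all genes of 5.36% and 5.99%. At any fold, 30 members had an adjusted p under 0.05, against 52.8% of all genes, with 19 higher and 11 lower against 28.5% and 24.3%. At a fold of 1.5 or more, 9 members were higher and 3 lower, against 11.0% and 10.9% of all genes. The arrays of the lines did not overlap in 20 members with SY5Y-TR1 higher and in 15 with SY5Y-TR1 lower, against 32.6% and 27.2% of all genes. The median log2 fold change of the members was 0.06 and that of all genes 0.04. The members near the 2-fold limit were PCDH17 just inside, at -1.06, and PCDHAC2, PCDHB7, PCDHB9, CDH11 and PCDHB3 outside, at -0.97, 0.93, 0.81, 0.78 and 0.77.

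**Figure D1:**
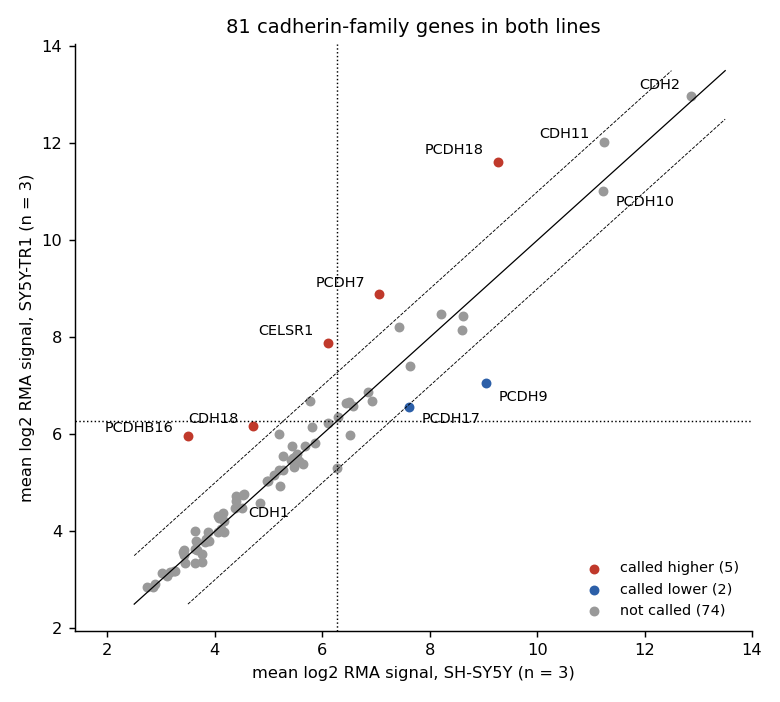
Mean log2 RMA signal of each of the 81 genes, with SH-SY5Y cells on the x axis and SY5Y-TR1 cells on the y axis, 3 arrays each. The solid line marks equal signal, the dashed lines a 2-fold difference and the dotted lines the background level. Of the genes, 5 called higher and 2 called lower lie outside the dashed lines, and the 57 genes under background on all 6 arrays lie in the lower left under both dotted lines.

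The beta cluster held a called gene, PCDHB16, and genes that differed beside genes that did not, so the bases before their gene starts are shown first. RefSeq promoter entries of build GRCh38.p14 were found for 61 of the 81 members, and for 14 genes of the beta cluster, all on the plus strand of chromosome 5. Over the 250 bases before these 14 gene starts, the 9-letter word shared by the most genes was GGTGGCGCT, present in 12 of them at 16 to 84 bases before the start. It was found by searching these same promoters, so its sharing is a description. Promoters of clustered protocadherins are known to carry a conserved element with a CGCT core that the insulator protein CTCF binds. On either strand the word occurred in 0.428% of the same windows of 27305 genes, and in 0 of 13 alpha and 0 of 20 gamma genes. Since the word was picked from beta promoters, these lower shares are a description too. Only this exact word was searched, so they do not show whether alpha or gamma promoters carry the element. The lines below give 60 bases around the word, written in capitals, for some of these 12 genes. Of those shown, 4 were higher in SY5Y-TR1 cells and 3 were not, and PCDHB16, PCDHB9 and PCDHB15 were under background on all 6 arrays.
PCDHB3: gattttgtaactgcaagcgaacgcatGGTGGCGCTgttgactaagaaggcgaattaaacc
PCDHB7: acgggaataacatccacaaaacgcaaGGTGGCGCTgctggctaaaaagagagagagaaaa
PCDHB16: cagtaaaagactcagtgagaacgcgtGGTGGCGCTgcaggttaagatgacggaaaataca
PCDHB9: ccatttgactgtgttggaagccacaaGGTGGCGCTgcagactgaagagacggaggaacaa
PCDHB4: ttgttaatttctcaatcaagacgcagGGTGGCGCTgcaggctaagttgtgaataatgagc
PCDHB14: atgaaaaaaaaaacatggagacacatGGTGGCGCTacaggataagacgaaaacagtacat
PCDHB15: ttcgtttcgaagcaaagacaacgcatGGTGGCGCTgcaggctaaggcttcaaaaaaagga
The windows lay at chr5:141100378-141100437 for PCDHB3, chr5:141172551-141172610 for PCDHB7, chr5:141182295-141182354 for PCDHB16 and chr5:141187059-141187118 for PCDHB9. Those of PCDHB4, PCDHB14 and PCDHB15 lay at chr5:141121708-141121767, chr5:141223248-141223307 and chr5:141245299-141245358. Of the 11 measured genes with the word, 5 were above background and 6 were not, and 6 had a positive and 5 a negative log2 fold change. The letters of PCDHB1 and PCDHB8 held no match in this window.

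In the beta cluster 1 of 17 measured genes was called. PCDHB16 gave log2 signals of 3.26, 3.64 and 3.60 in SH-SY5Y cells and of 5.74, 5.99 and 6.20 in SY5Y-TR1 cells. The arrays did not overlap, and the difference was 2.47 ± 0.14 (SE) on the log2 scale (adjusted p = 6.69e-06, limma), but all 6 arrays were under the background level and no fold is given. PCDHB16 has 1 probe set with a single symbol, so no other probe set was there to compare.

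In gene order PCDHB16 lies between PCDHB8 and PCDHB9, with PCDHB7 next to PCDHB8. PCDHB7 read 5.63, 5.91 and 5.77 in SH-SY5Y cells and 6.70, 6.75 and 6.64 in SY5Y-TR1 cells. It was thus above background only in SY5Y-TR1 cells, at least 1.33-fold higher, with a log2 fold change of 0.93 ± 0.08 (SE, adjusted p = 4.12e-05, limma), and it passed the 2-fold limit only with housekeeping centring (1.10). PCDHB9 was higher by 0.81 ± 0.10 (SE) on the log2 scale (adjusted p = 0.000466, limma), from 5.19 ± 0.19 to 5.998 ± 0.11 (SD, n = 3), all under background. PCDHB8, which lies between PCDHB7 and PCDHB16, read 3.89 ± 0.20 and 3.80 ± 0.06 (SD, n = 3), both under background.

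Elsewhere in the cluster, PCDHB3 read 7.43, 7.32 and 7.56 in SH-SY5Y cells and 8.04, 8.30 and 8.28 in SY5Y-TR1 cells, which did not overlap. It was 1.70-fold higher, with an adjusted p of 0.000281 (limma). PCDHB6 was 1.21-fold higher (8.22 ± 0.02 against 8.49 ± 0.06, SD, n = 3, adjusted p = 0.00206, limma), and neither reached the 2-fold limit. Other probe sets of PCDHB3 differed by 0.90, under background in both lines, and by 0.15, with overlapping arrays. The second PCDHB6 probe set, also under background in both lines, differed by -0.10, and the mean of both by 0.09. PCDHB4 was 1.17-fold lower (7.62 ± 0.02 against 7.40 ± 0.09, SD, n = 3, adjusted p = 0.0135, limma), a difference of -0.05 with housekeeping centring. PCDHB14 read 8.62 ± 0.09 and 8.44 ± 0.11 (SD, n = 3), with overlapping arrays. The pseudogene PCDHB18P differed by 0.01, with a 95% interval of -0.15 to 0.18, and was the other member of this cluster above background on all arrays. PCDHB13 was over the level on 2 arrays of each line, at 6.30 ± 0.14 and 6.36 ± 0.11 (SD, n = 3). Of the 10 beta genes under background in both lines, 4 had an adjusted p under 0.05 at any fold (PCDHB16, PCDHB9, PCDHB2 and PCDHB15), the latter pair with log2 fold changes of -0.27 and -0.39. Among all genes, above background or not, 52.8% had such a p. PCDHB2 was named after its values were seen.

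**Figure D2:**
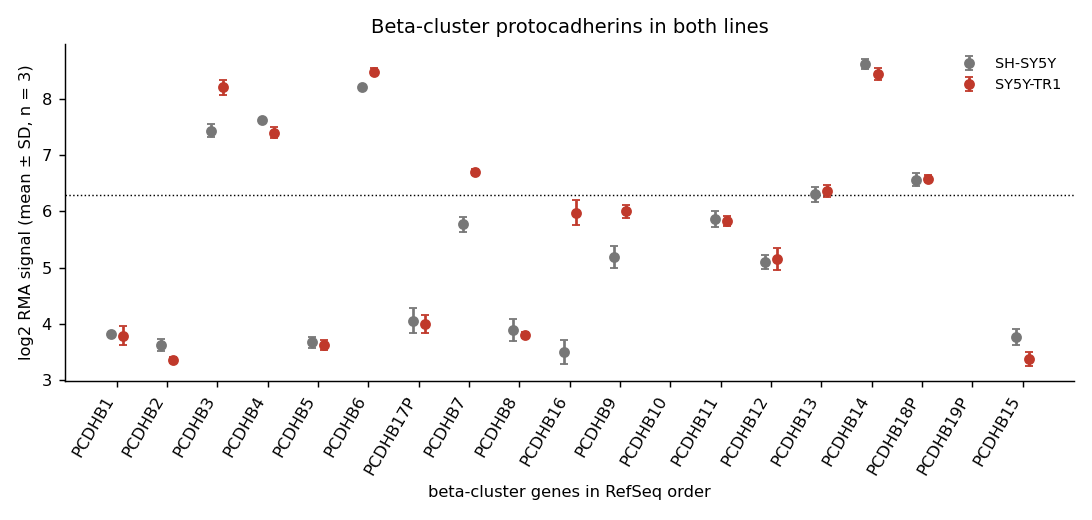
Log2 RMA signal of the beta-cluster protocadherins in gene order, as mean ± SD over 3 arrays in SH-SY5Y (grey) and SY5Y-TR1 cells (red), with the background level dotted and no points for 2 genes without a probe set of their own. PCDHB3, PCDHB7, PCDHB16 and PCDHB9 have the wider gaps with SY5Y-TR1 higher, and PCDHB8, between PCDHB7 and PCDHB16, has overlapping bars.

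Sequences of beta genes are much alike, and 5 of the 17 probe sets, those of PCDHB3, PCDHB11, PCDHB12, PCDHB13 and PCDHB18P, have names that mark probes which may also read other transcripts. A probe set annotated to both PCDHB9 and PCDHB10 read 9.20, 9.12 and 9.18 in SH-SY5Y cells and 8.31, 8.60 and 8.33 in SY5Y-TR1 cells. It was therefore 1.68-fold lower (adjusted p = 0.000253, limma over 54613 probe sets), the opposite direction to the probe set of PCDHB9 alone, and the 2 genes could not be separated on it.

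In the alpha cluster, each gene has a variable first exon joined to constant exons common to the cluster. Of 6 members with a probe set of their own, none was called, and 5 were under background in both lines. PCDHAC2 read 6.28, 6.12 and 6.39 in SH-SY5Y cells and 5.23, 5.38 and 5.29 in SY5Y-TR1 cells. Only 2 SH-SY5Y arrays exceeded the background level and their mean did not, so no fold is given. The log2 difference was -0.97 ± 0.08 (SE, adjusted p = 3.66e-05, limma). It passed the 2-fold limit without SH-SY5Y replicate 2 (-1.04) and without SY5Y-TR1 replicate 2 (-1.01).

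The cluster as a whole was read by 3 probe sets, each annotated to all 15 alpha genes, and all 3 fell, where 4.58% of probe sets were called lower. The first gave 8.63, 8.63 and 8.65 in SH-SY5Y cells and 7.43, 7.40 and 7.35 in SY5Y-TR1 cells, 2.37-fold lower (adjusted p = 1.06e-06, limma). The second gave means of 9.41 ± 0.02 and 8.23 ± 0.08 (SD, n = 3) and was 2.26-fold lower (adjusted p = 3.33e-06, limma). The third gave 7.91 ± 0.21 and 6.73 ± 0.17 (SD, n = 3) and was 2.27-fold lower (adjusted p = 0.000164, limma). All arrays were above background and the lines did not overlap on any of the 3. With housekeeping centring the log2 differences were -1.07, -1.01 and -1.01, still past the limit. Since the annotation ties these probe sets to every alpha gene, they give the sum over the cluster and not the gene that fell.

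Genes of the gamma cluster were hardly read by probe sets of their own. Of 13 measured members, 12 were under background on all 6 arrays and none was called. PCDHGB5 passed the level on SY5Y-TR1 replicate 1 alone, with means of 6.11 ± 0.08 and 6.23 ± 0.16 (SD, n = 3). Of the 12 others, 3 had an adjusted p under 0.05 at any fold, PCDHGA1, PCDHGA3 and PCDHGA4, with log2 differences of 0.24 to 0.37, and they were named after their values were seen. Among all genes, above background or not, 52.8% had such a p. Probe sets shared between several gamma genes were also under background in both lines. None of these was annotated to the whole cluster, so a sum over the gamma genes, as given for alpha, was not measured.

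The delta protocadherins, unclustered genes of neural adhesion and migration, held 4 of the 7 calls among 8 measured genes, 2 in each direction. Of all genes, 5.36% were called higher and 5.99% lower. PCDH18 read 9.32, 9.20 and 9.31 in SH-SY5Y cells and 11.53, 11.67 and 11.68 in SY5Y-TR1 cells. It rose 5.10-fold, with a log2 fold change of 2.35 ± 0.06 (SE, adjusted p = 1.35e-07, limma). Its second probe set, under background on every SH-SY5Y array, was at least 2.39-fold higher and was also called, where 3.79% of all probe sets were called higher. PCDH7 read 7.09, 6.97 and 7.13 in SH-SY5Y cells and 8.84, 8.92 and 8.90 in SY5Y-TR1 cells. It rose 3.54-fold, by 1.82 ± 0.06 (SE) on the log2 scale (adjusted p = 3.09e-07, limma). Of its 5 probe sets 3 were called. Another was 6.87-fold higher, with 1 SH-SY5Y array above background, the next at least 1.68-fold higher, with none above it, and the 2 not called were under background in both lines.

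PCDH9 went the other way, at 9.08, 8.98 and 9.07 in SH-SY5Y cells and 7.07, 7.21 and 6.93 in SY5Y-TR1 cells. It fell 3.93-fold, with a log2 fold change of -1.97 ± 0.08 (SE, adjusted p = 9.14e-07, limma), and 3 of its 4 probe sets were called lower, 1 of them under background in both lines and 1 at least 1.05-fold lower. The remaining one was not called, at least 1.14-fold lower. PCDH17 read 7.73, 7.49 and 7.66 in SH-SY5Y cells and 6.54, 6.62 and 6.55 in SY5Y-TR1 cells, 2.08-fold lower (-1.06 ± 0.07, SE, adjusted p = 1.27e-05, limma). Its other 2 probe sets were also called lower, but every SY5Y-TR1 array of both was under background, so they give only lower bounds, the higher of them at least 1.85-fold. Housekeeping centring ended the PCDH17 call, at -0.88.

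PCDH10 was at 11.23 ± 0.03 and 11.02 ± 0.01 (SD, n = 3), 1.16-fold lower (adjusted p = 0.00308, limma), a difference of -0.04 with housekeeping centring. Its 4 probe sets disagreed, with log2 fold changes from -0.45 to 0.59. PCDH1 was 1.13-fold higher (6.50 ± 0.03 against 6.67 ± 0.08, SD, n = 3, adjusted p = 0.0281, limma). PCDH8 and PCDH19 were under background in both lines. PCDH20 had no probe set of its own, and a probe set annotated to PCDH20 and the non-coding LINC02339 read 7.38, 7.21 and 7.24 in SH-SY5Y cells but 4.005, 4.03 and 4.35 in SY5Y-TR1 cells. This was at least 1.99-fold lower (adjusted p = 4.09e-07, limma), and the second probe set with both symbols was under background in both lines. Outside the delta group, PCDH12 of endothelium differed by 0.21 on the log2 scale (95% interval -0.05 to 0.46) and PCDH15 of hair cells was under background.

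**Figure D3:**
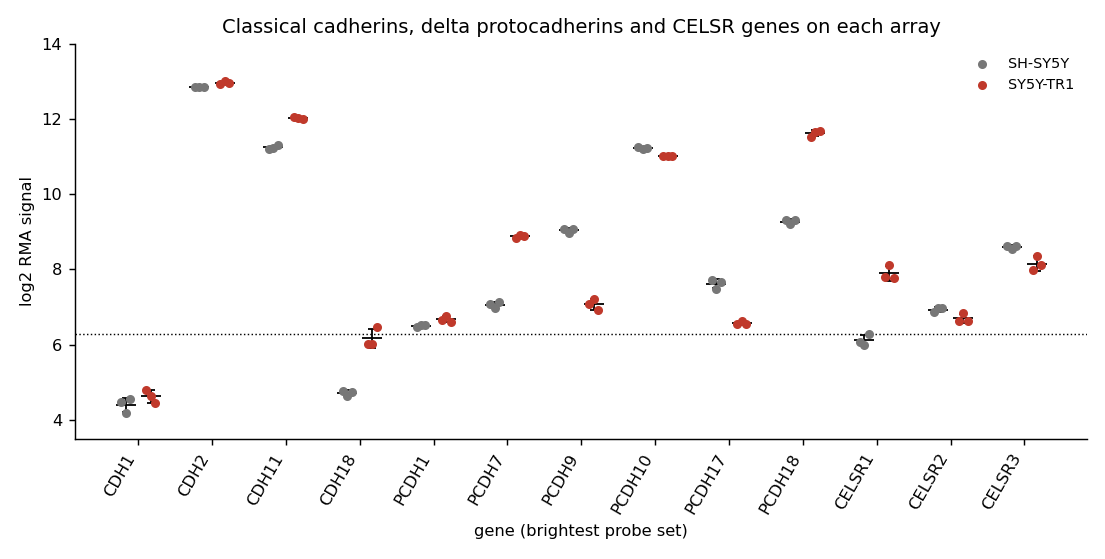
Log2 RMA signal of 13 classical cadherins, delta protocadherins and CELSR genes on each array of SH-SY5Y (grey) and SY5Y-TR1 cells (red), with mean and SD as bars and the background level dotted. The points of PCDH18, PCDH7 and CELSR1 are higher and those of PCDH9 and PCDH17 lower in SY5Y-TR1 cells with no overlap, while those of CDH1 overlap under the dotted line.

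Among type I classical cadherins none of 4 was called. CDH2, N-cadherin, read 12.85, 12.87 and 12.86 in SH-SY5Y cells and 12.94, 13.00 and 12.96 in SY5Y-TR1 cells. The arrays did not overlap, but the difference was 0.11 on the log2 scale (95% interval 0.01 to 0.20, adjusted p = 0.0592, limma), and its second probe set was higher by 0.27. With housekeeping centring the difference was 0.28, still under the 2-fold limit. CDH1, E-cadherin, read 4.46, 4.18 and 4.55 in SH-SY5Y cells and 4.79, 4.62 and 4.45 in SY5Y-TR1 cells. All values were under background and overlapped, with a difference of 0.23 (95% interval -0.06 to 0.51), so no fold is given. The second CDH1 probe set, also under background, differed by -0.17, the mean of both by 0.03, and the first by 0.40 with housekeeping centring (adjusted p = 0.0162, limma). P-cadherin (CDH3) and M-cadherin (CDH15) were also under background in both lines, and the latter had an adjusted p under 0.05 at any fold (0.0383, limma). CDH3 and CDH15 were named after their values were seen.

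Of 13 type II cadherins 4 were above background in at least 1 line and 1 was called. CDH11, a cadherin of mesenchyme and neural crest, read 11.21, 11.24 and 11.30 in SH-SY5Y cells and 12.05, 12.03 and 12.00 in SY5Y-TR1 cells. It was 1.71-fold higher (0.78 ± 0.04, SE, adjusted p = 6.07e-06, limma), short of the 2-fold limit, and its 4 probe sets were higher by 0.53 to 0.84. CDH18, a neural cadherin, was called higher, from 4.78, 4.64 and 4.75 to 6.01, 6.02 and 6.47. Only SY5Y-TR1 replicate 3 was above background, so no fold is given for the log2 difference of 1.45 ± 0.13 (SE, adjusted p = 5.69e-05, limma). CDH24 was above background in SH-SY5Y cells alone and at least 1.17-fold lower in SY5Y-TR1 cells (6.51 ± 0.12 against 5.99 ± 0.22, SD, n = 3, adjusted p = 0.0075, limma). CDH22 differed by 0.03, with a 95% interval of -0.23 to 0.30. The 9 others, among them VE-cadherin (CDH5) of endothelium and CDH19 of Schwann cells, were under background in both lines.

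All 7 desmosomal cadherins, DSC1 to DSC3 and DSG1 to DSG4, were under background on all 6 arrays and none was called. Mean signals ran from 2.74 to 5.27 in SH-SY5Y cells and from 2.85 to 5.26 in SY5Y-TR1 cells. DSG2, the desmoglein of simple epithelia, had an adjusted p under 0.05 at any fold, with a log2 difference of 0.27 (0.0349, limma), and was named after its values were seen. DSG3 differed by less than 0.01, with a 95% interval of -0.19 to 0.18. The 4 atypical cadherins (CDH16, CDH17, CDH23 and CDH26) and 4 cadherin-related genes (CDHR1, CDHR2, CDHR3 and CDHR5) were under background on all arrays as well, with no call. CDH23, a tip-link cadherin of hair cells, differed by 0.31 (95% interval 0.07 to 0.56) and CDHR2 of the brush border by -0.11 (95% interval -0.24 to 0.02). The other CDH23 probe sets, under background too, went the other way, at -0.12, -0.04 and -0.12. The mean over all CDH23 probe sets differed by 0.0085.

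All 3 CELSR genes were above background, and 1 was called. CELSR1 read 6.07, 5.99 and 6.29 in SH-SY5Y cells and 7.79, 8.12 and 7.77 in SY5Y-TR1 cells. It rose 3.43-fold (1.78 ± 0.11, SE, adjusted p = 1.22e-05, limma), although only 1 SH-SY5Y array exceeded the background level. Its other 2 probe sets were under background in both lines and differed by -0.07 and 0.19, and the mean over all 3 probe sets was not called (0.63). CELSR3 was 1.36-fold lower (8.60 ± 0.04 against 8.15 ± 0.20, SD, n = 3, adjusted p = 0.00679, limma) and CELSR2 1.18-fold lower (6.93 ± 0.06 against 6.70 ± 0.12, SD, n = 3, adjusted p = 0.0241, limma). With housekeeping centring these differences were -0.27 and -0.06.

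**Figure D4:**
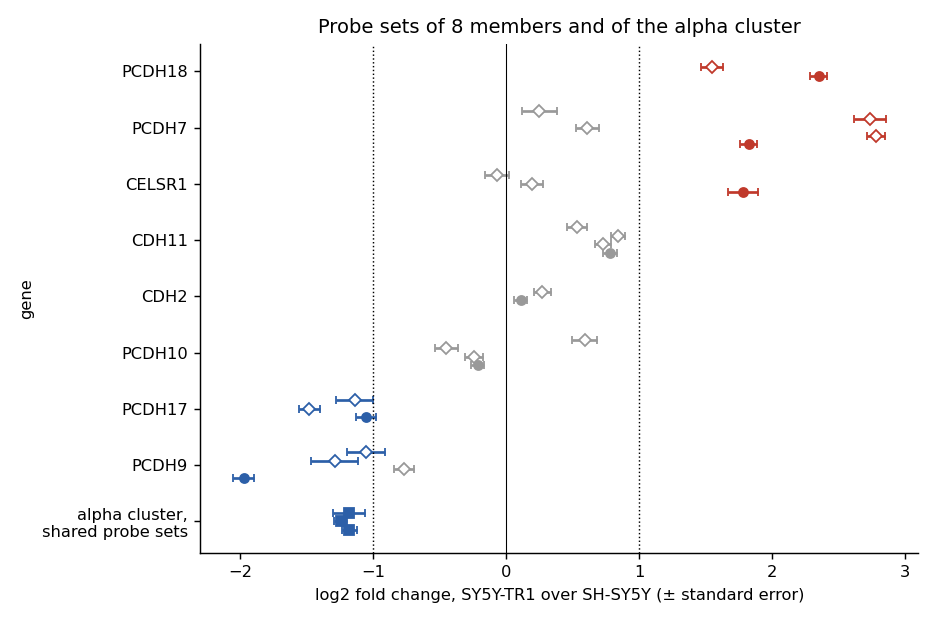
Log2 fold change (SY5Y-TR1 minus SH-SY5Y on the log2 scale) with its standard error for every single-symbol probe set of 8 genes and for 3 probe sets shared by the alpha cluster, where filled circles are the brightest probe sets, open diamonds the others and squares the shared ones, red called higher, blue called lower and grey not called, with the 2-fold limits dotted. Both PCDH18 probe sets, all 3 of PCDH17 and all 3 shared ones are past a limit, 3 of 5 for PCDH7, 3 of 4 for PCDH9 and 1 of 3 for CELSR1. Where a probe set was under background in a line the plotted difference is the fitted value and not a bound.

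The genes that act with cadherins were followed on lists written from general knowledge, on which 58 of 60 genes were measured. Of these 58 genes 3 were called higher and 5 lower, against 5.36% and 5.99% of all genes. The same shares apply beside the counts of each list below. The median log2 fold change was 0.06. Of 20 catenins, plaque proteins and nectins 2 were called higher and 1 lower. CTNNA2, the neural alpha-catenin that links the cadherin complex to actin, read 7.75, 7.54 and 7.40 in SH-SY5Y cells and 4.59, 4.27 and 4.50 in SY5Y-TR1 cells, and fell at least 2.43-fold (adjusted p = 6.67e-07, limma). The widely used CTNNA1 was 1.14-fold higher (11.91 ± 0.03 against 12.09 ± 0.07, SD, n = 3, adjusted p = 0.0195, limma). Beta-catenin, CTNNB1, was 1.10-fold lower (12.82 ± 0.03 against 12.69 ± 0.03, SD, n = 3, adjusted p = 0.0307, limma). Both were under the 2-fold limit. The CTNNB1 probe sets disagreed in size, since the other 2, above background on all arrays, were 1.71-fold (9.60 ± 0.02 against 8.83 ± 0.02, SD, n = 3, adjusted p = 1.02e-05, limma) and 1.57-fold lower (7.72 ± 0.02 against 7.07 ± 0.13, SD, n = 3, adjusted p = 0.000243, limma), with p adjusted over all probe sets. Plakoglobin (JUP), which serves both kinds of junction, was 1.36-fold higher (7.79 ± 0.03 against 8.23 ± 0.03, SD, n = 3, adjusted p = 8.12e-05, limma). CTNND1 was not analysed here.

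Desmoplakin (DSP), the desmosome's link to intermediate filaments, was called higher from 3.45, 3.94 and 3.26 to 5.47, 5.97 and 5.84. All 6 arrays were under background, so no fold is given for the log2 difference of 2.21 ± 0.20 (SE, adjusted p = 6.40e-05, limma). NECTIN4, an adhesion molecule of the immunoglobulin family, was at least 1.06-fold higher, with only SY5Y-TR1 replicate 1 over the level, and the call was lost without SH-SY5Y replicate 1 (0.98) or SY5Y-TR1 replicate 1 (0.93).

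Of 11 planar polarity genes, the partners of the CELSR receptors, 1 was called higher and 2 lower. The frizzled receptor FZD6 read 9.03, 8.99 and 8.99 in SH-SY5Y cells and 11.31, 11.33 and 11.32 in SY5Y-TR1 cells and rose 4.98-fold (adjusted p = 3.22e-08, limma). Its relative FZD3 went from 8.17, 8.23 and 8.25 to 6.39, 6.56 and 6.50 and fell 3.33-fold (adjusted p = 3.76e-07, limma), on all 4 of its probe sets. PRICKLE1, a cytoplasmic polarity protein, fell at least 3.13-fold (7.93 ± 0.24 against 5.60 ± 0.10, SD, n = 3, adjusted p = 4.34e-06, limma), on 3 of 4 probe sets, of which the other 2 called give at least 1.18-fold and 1.64-fold.

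Of 10 relatives outside the numbered families 1 was called. DCHS1, the large cadherin that binds FAT4, read 9.62, 9.62 and 9.63 in SH-SY5Y cells and 4.20, 4.63 and 4.73 in SY5Y-TR1 cells. It fell at least 10.1-fold (adjusted p = 1.53e-07, limma) on this probe set, whereas its other probe set, under background in both lines, was lower by 0.73. FAT4 was 1.55-fold and FAT1 1.74-fold higher, with adjusted p of 0.0102 and 0.0017 (limma), both under the limit.

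The list of 10 genes of protocadherin promoter choice held CTCF, the cohesin complex that forms loops with it, cohesin's loader and release factor, and the silencing factors SMCHD1 and DNMT3B. All 10 were lower in SY5Y-TR1 cells with no overlap between the lines, against 27.2% of all genes, and had an adjusted p under 0.05 (limma). That share also covers 7959 genes under background in both lines, whereas all 10 listed genes were above it. The list was chosen with earlier results of these data known, so the contrast is a description and not a test. The median log2 fold change was -0.73, and 1 gene passed the 2-fold limit. This was the DNA methyltransferase DNMT3B, which read 8.33, 8.34 and 8.33 in SH-SY5Y cells and 6.93, 6.73 and 6.78 in SY5Y-TR1 cells and fell 2.87-fold (adjusted p = 9.90e-07, limma). CTCF was 1.64-fold lower (10.24 ± 0.02 against 9.52 ± 0.03, SD, n = 3, adjusted p = 6.04e-06, limma), and the 5 cohesin subunits were lower by 0.64 to 0.86 on the log2 scale. The direction held for all 10 with the housekeeping shift of 0.17 taken off, since the smallest difference was -0.42. Their part in the protocadherin values was not tested.

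**Figure D5:**
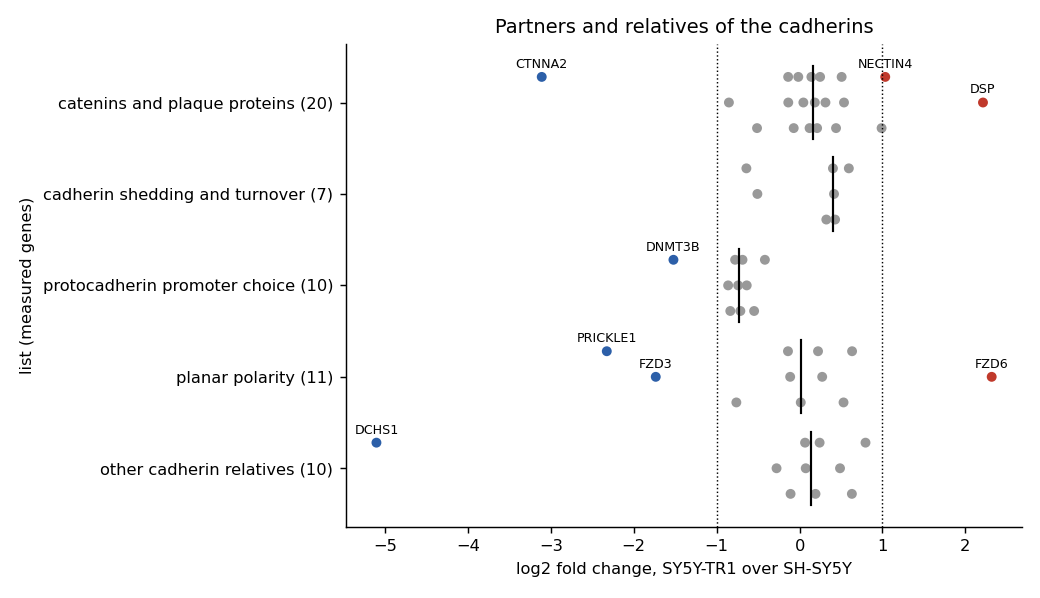
Difference in log2 signal (SY5Y-TR1 minus SH-SY5Y) of 58 partner genes and relatives in 5 lists, with 1 point a gene, red called higher, blue called lower, grey not called, a bar at each list's median and the 2-fold limits dotted. All 10 points of the promoter choice list lie left of zero around a median of -0.73, and the named points are the 8 genes called.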

How the data were processed

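RNA of SH-SY5Y and SY5Y-TR1 cells, 3 samples each, was read on Affymetrix U133 Plus 2.0 GeneChips. The deposited values are log2 RMA signals per probe set, made by the authors in Affymetrix Expression Console according to the processing notes (version not given in the sources used here). Background correction, quantile normalization and probe summary were thus done before deposit, which compresses low signals, and were not varied from scanner signals. The number of arrays limits the precision. Samples were grouped by their labels. Genes were named through the platform annotation, checked against a RefSeq table. Without 62 controls there were 54613 probe sets, of which 41091 carried 1 symbol, 1801 several and 11721 none, and only the first kind named a gene.

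All 19775 genes, each by its brightest probe set, and all probe sets were fitted with limma 3.58.1 (lmFit and eBayes, R 4.3.3) without a replicate block and adjusted by Benjamini-Hochberg. In 5 simulations with 200 changed genes, at least 96% of those changed by 1.25 on the log2 scale were called, and 0 unchanged ones. Their noise was independent and drawn from the spread between arrays of a line. At such a spread and a 2-fold limit an unchanged gene could hardly be called, and a change of 1.25 could hardly be missed. The simulations therefore measure neither false calls nor missed ones here. Named genes were the called members, those above background on all 3 arrays of a line, CDH1, CDH2, CDH11, the member of each family with the highest mean signal (a rule for naming, not a comparison of levels), the 3 members nearest the 2-fold limit on either side, called partners and 4 catenins. The members and lists were chosen with earlier results of these data known. Alternatives were other probe set choices, centrings, thresholds, background handling, variance models and a replicate block, the methods' t-test and each array left out.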

Additional observations from a re-analysis of the deposited data

How the results depend on the processing

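The 5 higher and 2 lower calls among the members were the same 7 genes without probe sets of shared-sequence names, after quantile normalization applied again, with the trend and robust variance and in the methods' t-test. They were also called with each array left out, where PCDHAC2 joined in 2 of 6 fits. The mean of all probe sets lost CELSR1. With housekeeping centring 1 member was called lower (PCDH17 lost) and PCDHB7 was gained. With the filter on dim genes, which left CDH18 and PCDHB16 untested, and with values raised to the background level, 3 were called higher, and the latter left 2 of 7 other probe sets of called members called. Without a fold limit 19 members were higher and 11 lower, against 28.5% and 24.3% of all genes. In that setting 43 of 58 partners were called, where 52.8% of all genes were. At a fold of 1.5, 9 members were higher and 3 lower, against 11.0% and 10.9% of all genes. At that fold 23 of 58 partners were called, beside the same shares. Above background were 50 members at the background genes' median level and 15 at their maximum. Directions turned only for values near zero, with the cause not tested. With the mean of probe sets DSG3 gave 0.0073 and PCDHB18P -0.0897, and without shared-sequence names PCDHB18P gave -0.1939. With housekeeping centring CDHR2 gave 0.0639 and DSG3 0.1684. With arrays left out CDH22 ran from -0.0420 to 0.1421, DSG3 from -0.0759 to 0.0629 and PCDHB18P from -0.0483 to 0.0707. Partner calls rose from 8 to 9 with housekeeping centring and with quantile normalization applied again, where NECTIN3 was gained (1.16 and 1.01). Without shared-sequence names 6 partners were called, as DCHS1 was not (-0.73) and DNMT3B, whose only probe set has such a name, was not tested. DSP and NECTIN4 were not called with values raised to the background level, and NECTIN4 was not without replicate 1 of either line.

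The replicate numbers paired no arrays, since deviations of same-numbered arrays from their line means correlated at 0.04, 0.09 and -0.0034. With the number as a block the counts stayed at 5 higher and 2 lower members and 8 partners. Of the 57 members under background in both lines, 13 had an adjusted p under 0.05 and 1 was called. Among all genes 52.8% had such a p, 5.36% were called higher and 5.99% lower. Those shares also cover genes above background.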

Other observations

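Measured genes for enzymes that cleave cadherins from the cell surface or turn them over differed between the lines by less than 2-fold. All 7 measured genes of this list had an adjusted p under 0.05 (limma) and arrays that did not overlap between the lines, where 52.8% of all genes had such a p and 32.6% were higher and 27.2% lower without overlap, and none reached the 2-fold limit. All 7 were above background in both lines, whereas these shares also cover genes under it. The sheddases ADAM10, ADAM17 and ADAM15 were higher in SY5Y-TR1 cells by 0.42, 0.43 and 0.32 on the log2 scale. Of the gamma-secretase subunits, which act after shedding, NCSTN and PSENEN were higher by 0.59 and 0.40 and APH1A was lower, at -0.64. CBLL1, a ubiquitin ligase known for E-cadherin turnover, was lower, at -0.51.

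Among plaque proteins and nectins that were not called, NECTIN3 was 1.98-fold higher (8.18 ± 0.03 against 9.17 ± 0.04, SD, n = 3; adjusted p = 1.83e-06, limma), just under the limit. It was past the limit with housekeeping centring (log2 difference 1.16), with quantile normalization applied again (1.01) and without SH-SY5Y replicate 3, SY5Y-TR1 replicate 2 or SY5Y-TR1 replicate 3 (1.001 to 1.004), while the mean of its probe sets differed by 0.44. PKP4, a plakophilin relative, was 1.81-fold lower (9.81 ± 0.08 against 8.96 ± 0.05, SD, n = 3; adjusted p = 1.33e-05, limma). Vinculin (VCL), which binds alpha-catenin under tension, was 1.42-fold higher and CTNNAL1 1.43-fold lower. These genes and those of the paragraph above were named after their values were seen.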
